A study of Mus musculus with 9 samples.

Results

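Transcripts of 31 genes known as markers of astrocytes and of the oligodendrocyte lineage were followed in microglia sorted from the visual cortex of adolescent mice. The 31 symbols, 17 of astrocytes, 9 of myelinating oligodendrocytes and 5 of oligodendrocyte precursors or the whole lineage, were looked up by name among the 45664 symbols of the count table, and all 31 were present. They were chosen by cell type and with measured levels of these libraries in view, among them the near absence of Slc1a2 from the library saline 1 and its contrast with Slc1a3, so what is said of these patterns is a description and carries no test. All 31 are protein-coding in GENCODE release M21 on GRCm38. After a filter on low counts 22 of the 31 were tested and 9 were not.

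The cells came from male C57BL/6 mice with no engineered allele named in the labels. Of these, 4 had received ethanol under the skin at 1.8 g per kg in a 20% v/v solution, 2 times a day and 2 h apart, from postnatal day 4 to postnatal day 9 (3.6 g per kg a day), and 5 had received saline on the same schedule. Ethanol 1, 2, 3 and 4 were 35, 35, 30 and 30 days old at collection, and saline 1 to 5 were 36, 30, 35, 29 and 30 days old. Mice of 35 or 36 days (4 mice) are called older and those of 29 or 30 days (5 mice) younger. Each library held the microglia of 1 mouse, sorted as live cells positive for CD11b and low for CD45 after depletion of myelin. The mice came from 3 litters, but which mouse came from which litter was not recorded in the labels used here.

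Astrocytes take up glutamate released at synapses through the transporters encoded by Slc1a2 and Slc1a3 and turn it into glutamine with the enzyme encoded by Glul. Oligodendrocytes wrap axons in myelin, a stack of membrane held together by proteins such as those of Mbp, Mag and Mobp, and arise from precursors that carry the receptor encoded by Pdgfra. Neither cell type is meant to pass a gate for CD11b, which microglia and other myeloid cells display, so these transcripts are not what the gate selects for.

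Levels are given as CPM, counts set on a common library size after scaling with TMM, the trimmed mean of M values. The libraries held 12816198 to 28859244 counts, and 1 count was worth 0.0345 to 0.0794 CPM. The summed level of 12 microglial markers, among them Csf1r, was 63108 to 74981 CPM in ethanol libraries and 62334 to 72525 CPM in saline libraries, and none of the 12 was more than 2-fold below the other libraries in saline 1. The 17 astrocyte genes together reached 708 to 1066 CPM in ethanol libraries and 530 to 985 CPM in saline libraries, and the 9 genes of myelinating oligodendrocytes 227 to 256 CPM in ethanol libraries and 197 to 254 CPM in saline libraries. The label of astrocyte and oligodendrocyte transcripts holds for the known expression of these genes in brain. It does not hold as 1 pattern over the libraries, where the genes fell apart into a set of 17 that was more than 2-fold lower in saline 1 than in any other library and a set of 5 that was not.

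Promoter sequences are shown for 2 members of each set, since the sets differed over the libraries: Slc1a2 and Mobp from the set low in saline 1, and Slc1a3 and Glul from the other set. Each window, from RefSeq on GRCm38.p6, runs 5′ to 3′ on the strand of the gene, and spans 300 bases around the annotated start. The windows are chr2:102706188-102706487 on the + strand for Slc1a2, chr9:120149492-120149791 on the + strand for Mobp, chr15:8710758-8711057 on the - strand for Slc1a3 and chr1:153899679-153899978 on the + strand for Glul. Capitals mark the letters GAGGAA or their reverse complement TTCCTC, the core letters bound by PU.1, the lineage factor of myeloid cells.
Slc1a2 promoter: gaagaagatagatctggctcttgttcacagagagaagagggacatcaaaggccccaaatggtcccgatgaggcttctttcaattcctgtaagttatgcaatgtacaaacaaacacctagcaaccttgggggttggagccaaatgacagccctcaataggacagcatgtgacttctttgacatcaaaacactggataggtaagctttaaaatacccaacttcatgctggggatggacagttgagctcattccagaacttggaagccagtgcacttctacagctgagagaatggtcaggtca
Mobp promoter: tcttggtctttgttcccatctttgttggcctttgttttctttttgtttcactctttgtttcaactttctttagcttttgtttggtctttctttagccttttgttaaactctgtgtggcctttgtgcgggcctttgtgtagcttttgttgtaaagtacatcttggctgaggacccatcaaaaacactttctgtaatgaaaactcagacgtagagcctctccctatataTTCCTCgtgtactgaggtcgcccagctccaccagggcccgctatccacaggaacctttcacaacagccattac
Slc1a3 promoter: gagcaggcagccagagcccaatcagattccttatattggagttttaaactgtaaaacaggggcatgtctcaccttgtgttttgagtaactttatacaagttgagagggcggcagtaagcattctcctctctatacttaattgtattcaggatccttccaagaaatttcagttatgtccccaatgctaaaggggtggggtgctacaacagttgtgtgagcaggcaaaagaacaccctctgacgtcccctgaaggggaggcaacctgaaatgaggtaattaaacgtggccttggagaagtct
Glul promoter: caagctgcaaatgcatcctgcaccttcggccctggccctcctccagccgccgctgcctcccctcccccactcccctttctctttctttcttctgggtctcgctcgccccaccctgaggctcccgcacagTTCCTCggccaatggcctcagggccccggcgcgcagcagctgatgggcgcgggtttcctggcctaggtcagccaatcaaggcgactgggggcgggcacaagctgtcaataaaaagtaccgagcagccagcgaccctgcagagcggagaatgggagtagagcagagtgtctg
The search covered both strands of each window. Mobp and Glul held 1 match each, and Slc1a2 and Slc1a3 held none, so the letters did not divide the sets. The table had a promoter for 24 of the 31 genes, among them 12 of the 17 low in saline 1, of which 5 held GAGGAA, and 4 of the 5 in the other set, of which 2 did. Among all 32851 promoters listed, 28.3% held it. The letters TTGGCA or TGCCAA, which form a half-site of the NFI factors active in astrocytes, were in 2 of the 12 and 1 of the 4, against 14.1% of all promoters, and in none of the 4 printed. Member genes were counted if any of their listed windows held the letters, whereas the shares over all promoters count single windows. These matches describe letters in a window and say nothing of what is bound there. The Slc1a2 window starts inside the gene as GENCODE release M21 draws it (chromosome 2, 102658659 to 102790784), which starts further upstream.

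The glutamate transporters gave the clearest contrast. Slc1a2, whose protein clears most synaptic glutamate in the forebrain, was at 31.0, 19.7, 17.4 and 70.7 CPM in ethanol 1 to 4 and at 0.505, 21.1, 22.7, 16.6 and 46.0 CPM in saline 1 to 5. Saline 1 had 9 counts of it (95% Poisson interval 4.12 to 17.1, counting error only), which is 2.30% of the median of the other 8 libraries. Saline 1 stood far below every other library, while ethanol 4 and saline 5 were the highest. Slc1a3 (chromosome 15, 8634124 to 8710764, - strand), which encodes the other glial glutamate transporter, was at 295, 331, 259 and 264 CPM in ethanol 1 to 4 and at 267, 240, 306, 260 and 305 CPM in saline 1 to 5. It was even over the 9 libraries, and saline 1, with 4768 counts, was at 95.7% of the median of the others. Per kilobase of exon Slc1a3 averaged 32.9 CPM and Slc1a2 2.08 CPM.

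**Figure D1:**
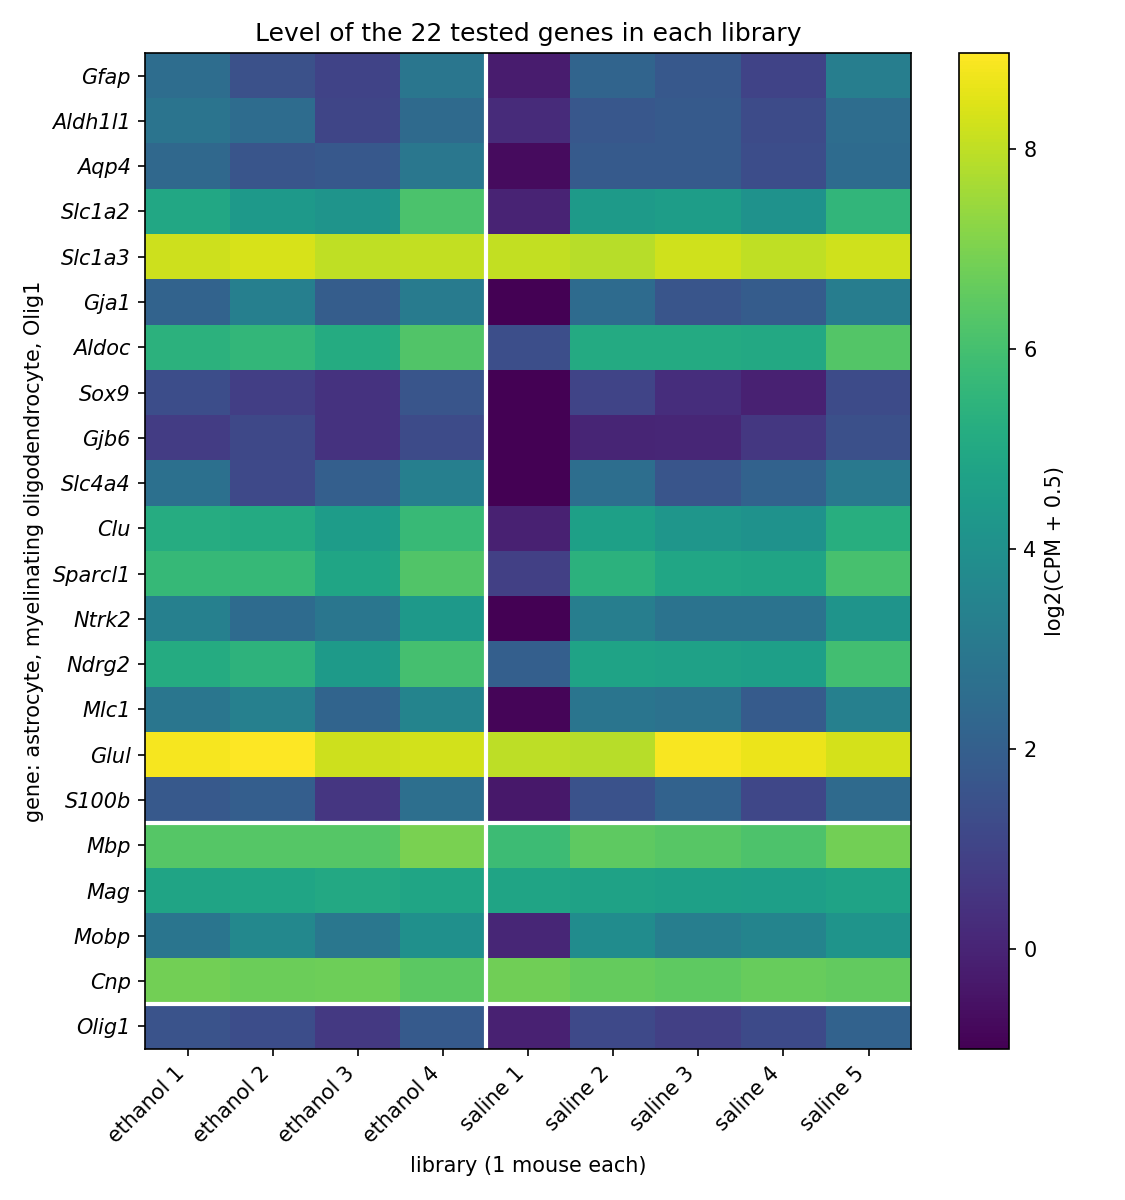
Level of the 22 tested genes (down the page) in each library (across, 1 mouse each), as log2(CPM + 0.5) in colour, with ethanol libraries left of the white line and saline libraries right of it. Most genes are dark in saline 1, while Slc1a3, Glul, Mbp, Mag and Cnp change little in colour there.

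Over the 22 tested genes, 17 were more than 2-fold below the lowest of the other 8 libraries in saline 1, against 459 of 13067 genes tested (3.51%). In none of the other 8 libraries was any of the 22 genes so placed, but 18 of the 22 were lowest in saline 1. For those 18 no other library could be so placed, so their absence there was fixed in advance. Over all genes tested ethanol 2 had 653 such genes (5.00%). In saline 1 the 17 genes were between 0 and 22.7% of the median of the other libraries, with a median of 2.93%, or 4.89% with the 5 genes at 0 counts set to the floor of 3 counts. The 17 together summed to 253, 251, 159 and 433 CPM in ethanol 1 to 4 and to 10.4, 205, 171, 155 and 384 CPM in saline 1 to 5. The other 5 summed to 974, 1044, 776 and 815 CPM in ethanol 1 to 4 and to 717, 694, 964, 863 and 857 CPM in saline 1 to 5. Only the first sum set saline 1 apart, which follows from the split of the genes by their level in that library. In bulk libraries fewer cells of a type and less RNA per cell cannot be told apart.

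**Figure D2:**
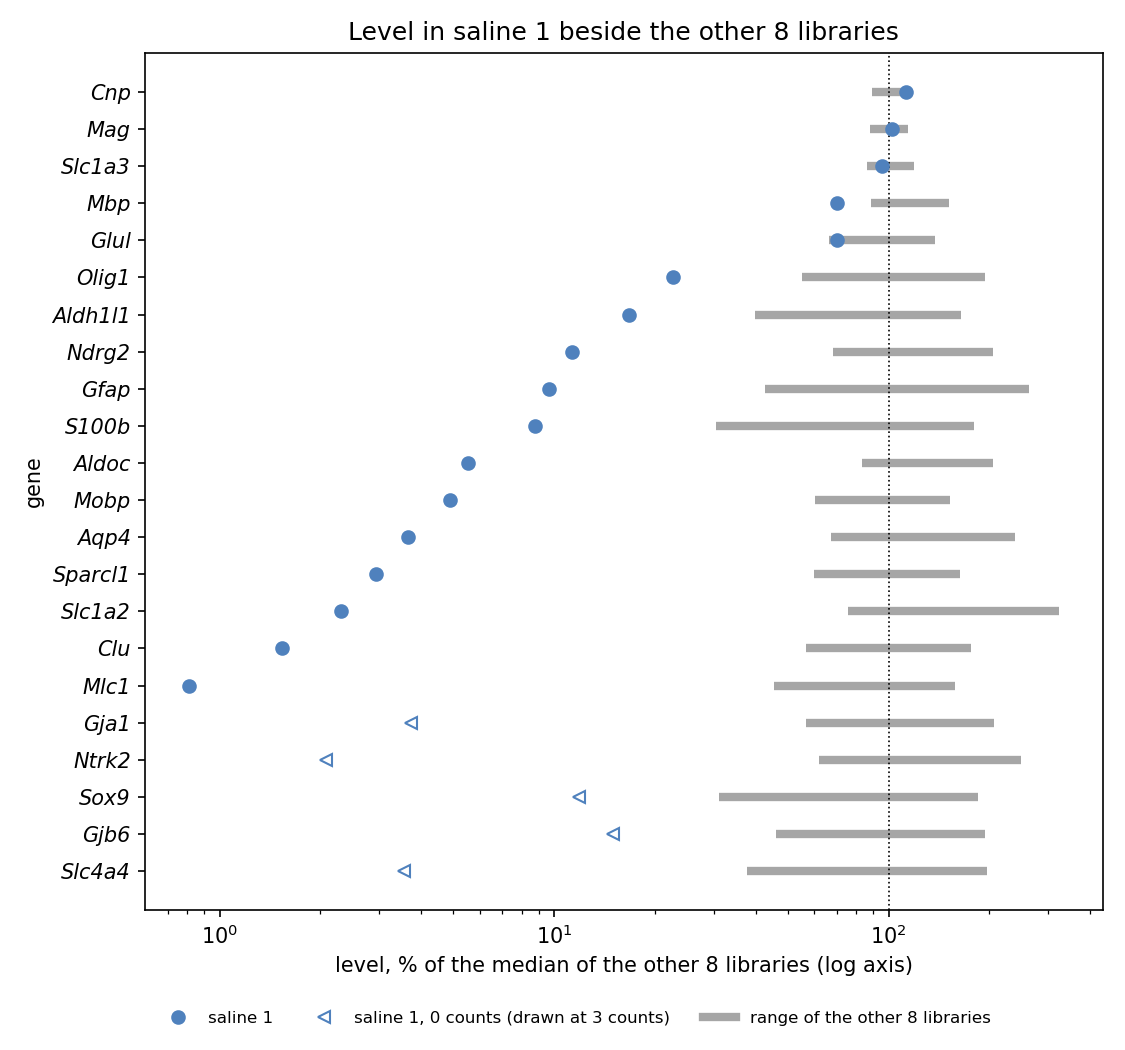
Level of each of the 22 tested genes in saline 1 (points) as a percentage of the median of the other 8 libraries, on a log axis, with the range of those 8 as a grey bar; open triangles mark genes with 0 counts, drawn at 3 counts. The points of 17 genes lie left of their bars by more than 2-fold, with Olig1 the highest of them at 22.7%, and those of Cnp, Mag, Slc1a3, Mbp and Glul lie at 69.8% or above.

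Among genes of astrocyte metabolism, Aldoc, the brain isoform of the glycolytic enzyme aldolase, was at 42.3, 47.6, 34.8 and 75.1 CPM in ethanol 1 to 4 and at 2.13, 33.9, 33.2, 32.1 and 79.0 CPM in saline 1 to 5. Apart from saline 1, saline 5 and ethanol 4 stood above the remaining 6, which lay close together. Aldh1l1, an enzyme of folate metabolism used as a pan-astrocyte marker, was at 0.673 CPM in saline 1 and 1.6 to 6.59 CPM in the others, with ethanol 1 the highest. In the annotation 11% of its exon bases overlap the antisense gene Gm15756, and with the use of strand in counting not given, reads of the 2 genes cannot be told apart.

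The secreted proteins followed the same course. Clu, which encodes the chaperone and apolipoprotein clusterin, was at 35.3, 33.4, 22.1 and 51.3 CPM in ethanol 1 to 4 and at 0.448, 24.8, 18.4, 16.5 and 37.9 CPM in saline 1 to 5. Its 8 counts in saline 1 (95% Poisson interval 3.45 to 15.8) amounted to 1.54% of the median of the others. Sparcl1, which encodes hevin, a matrix protein that promotes the formation of synapses, was at 50.4, 50.7, 28.7 and 75.1 CPM in ethanol 1 to 4 and at 1.35, 41.5, 29, 27.4 and 66.0 CPM in saline 1 to 5. Both genes were lowest by far in saline 1 and highest in ethanol 4.

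Membrane transporters, channels and junction proteins were at a few CPM in most libraries and at or near 0 in saline 1. Gja1 and Gjb6, which encode the astrocytic gap junction proteins connexin 43 and connexin 30, had 0 counts there, against 2.55 to 9.29 CPM and 0.517 to 2.18 CPM in the other 8. Slc4a4, a sodium bicarbonate cotransporter, also had 0 counts, against 1.78 to 9.29 CPM. Aqp4, the water channel of astrocyte endfeet, had 2 counts (95% Poisson interval 0.242 to 7.22), against 2.05 to 7.31 CPM. Mlc1, a membrane protein that partners with cell adhesion molecules at the endfeet, had 1 count (0.0253 to 5.57), against 3.15 to 10.9 CPM. In every one of these genes saline 1 lay below the other 8 libraries. Taking 3 counts, or 0.168 CPM, as the floor of saline 1, the median of the other libraries was at least 26.8-fold higher for Gja1, at least 6.67-fold higher for Gjb6 and at least 28.1-fold higher for Slc4a4.

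Among receptors, signalling proteins and regulators, Ntrk2, the receptor of the growth factor BDNF, which astrocytes carry mostly in a truncated form, was at 9.61, 5.02, 6.99 and 20.2 CPM in ethanol 1 to 4 and at 0, 9.21, 6.53, 6.47 and 17.2 CPM in saline 1 to 5. The median of the other libraries was at least 48.2-fold above the floor of saline 1. Sox9, a transcription factor of astrocytes, had 0 counts in saline 1 and 0.443 to 2.62 CPM elsewhere (at least 8.43-fold). Ndrg2, a cytoplasmic protein enriched in astrocytes, was less depleted, at 3.53 CPM (63 counts) in saline 1 against 21.2 to 64.1 CPM. Gfap, the intermediate filament of astrocytes, had 0.336 CPM in saline 1, against 1.49 to 9.15 CPM, and S100b, a calcium-binding protein, had 0.280 CPM, against 0.974 to 5.73 CPM. None of these 5 genes overlapped between saline 1 and the other libraries.

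Glutamine synthetase, encoded by Glul (chromosome 1, 153899944 to 153909723, + strand), did not follow them. It was at 459, 499, 298 and 311 CPM in ethanol 1 to 4 and at 253, 240, 462, 407 and 318 CPM in saline 1 to 5. Saline 1 lay within the range of the others, and saline 2 was the lowest. Glul had the highest level per kilobase of the 31 genes, at 109 CPM, and it is known to be expressed outside astrocytes too. Its highest libraries, ethanol 1, ethanol 2, saline 3 and saline 4, were the 4 whose names share a suffix in the labels, at 407 to 499 CPM. The 4 libraries of the other shared suffix, ethanol 3, ethanol 4, saline 2 and saline 5, were at 240 to 318 CPM, and saline 1, with a suffix of its own, at 253 CPM. The labels do not say what the suffix stands for. Glul was the only 1 of the 22 genes whose levels did not overlap between the suffixes, against 701 of all genes tested (5.36%). A count of 1 in 22 is near the share over all genes, and this split was looked at after the values were seen.

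The myelin genes did not move together. Mobp, a basic protein of compact myelin, was at 6.91, 12.2, 7.16 and 15.7 CPM in ethanol 1 to 4 and at 0.561, 13.7, 8.99, 10.7 and 17.5 CPM in saline 1 to 5, so that saline 1 was at 4.89% of the median of the others. Mbp, the major basic protein of myelin, was at 80.0, 80.8, 79.9 and 123 CPM in ethanol 1 to 4 and at 57.0, 89.3, 81.9, 72.1 and 114 CPM in saline 1 to 5. Mbp too was lowest in saline 1 and highest in ethanol 4 and saline 5, but at 70.0% of the median of the others it was reduced far less than Mobp. Besides the proteins of myelin, the Mbp locus encodes the golli proteins, which are made in immune cells, and counts per symbol do not separate the transcripts.

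Mag and Cnp were not low in saline 1. Mag, a sialic acid-binding adhesion protein of the innermost myelin layer, was at 27.9, 28.2, 31.5 and 28.4 CPM in ethanol 1 to 4 and at 28.1, 26.6, 25.0, 24.2 and 27.1 CPM in saline 1 to 5. Cnp, a phosphodiesterase of uncompacted myelin, was at 113, 106, 108 and 87.7 CPM in ethanol 1 to 4 and at 111, 97.8, 89.0, 98.9 and 93.3 CPM in saline 1 to 5. In saline 1 they stood at 102% and 113% of the median of the others, and over all 9 libraries their highest level was 1.30 and 1.29 times their lowest. The exons of Cnp share 154 bases (4.23%) with Dnajc7 on the opposite strand, and those of Mag share none with another gene.

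The remaining myelin genes were scarcely counted. Cldn11, the claudin of myelin tight junctions, had 0 counts in all 9 libraries. Over the 9 libraries Opalin, an oligodendrocyte membrane protein, had 5 counts, Mal, a proteolipid of myelin, 45, Ermn, a cytoskeletal protein of the myelin sheath, 50, and Mog, a glycoprotein of the outer myelin surface, 50. Mog is the exception in saline 1, with 7 counts there against 1 to 11 in each of the others. None of these 5 genes passed the filter over all 9 libraries. In the younger mice alone (2 ethanol, 3 saline) the filter let through Mal, with a log2 fold change of -6.42 ± 2.29 (SE), and Ermn, with 0.03 ± 1.30, both with an adjusted p of 1.0 by edgeR's quasi-likelihood test. Mal had 0 counts in both younger ethanol mice and 23, 0 and 14 counts in the younger saline mice, so its fitted value is no measure of size. Relative to length, Mbp averaged 10.2 CPM per kilobase over the 9 libraries, against 0.158 for Mog, 0.0776 for Mal and 0.0774 for Ermn.

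Of the precursor and lineage genes only Olig1, a transcription factor of the whole lineage, was tested, at 0.448 CPM (8 counts) in saline 1 against 1.09 to 3.84 CPM in the others. Olig2, its neighbour on chromosome 16 and partner in the lineage, had 43 counts over the 9 libraries, Sox10, a further lineage factor, 17, Pdgfra, the growth factor receptor of precursors, 87, and Cspg4, the NG2 proteoglycan of precursors and pericytes, 14. Pdgfra had 35 counts in ethanol 4 and 15 in ethanol 1, with 0 in ethanol 3 and saline 1 and 3 to 14 in the others. These levels are near the floor of 3 counts in most libraries, and no order of the libraries can be read from them.

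Saline 1 was not the only difference that the 17 genes shared. Over the other 8 libraries their highest level was 2.46 to 6.14 times their lowest, with a median of 3.64, against a median of 1.62 over all genes tested. The highest library was ethanol 4 for 10 of the 17 and saline 5 for 5, and these 2 libraries were the highest pair for 13. Both were from younger mice, 1 of each treatment. Ethanol 4 had the most sorted cells (19071) and saline 1 the fewest (8923), while saline 5 had 11603 and ethanol 3 had 9291. The part of cell number in these levels was not tested. Saline 1 had 18476279 counts, within the range of the others, and an RNA integrity number of 9.2, against 9 to 9.9 in the others.

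Covariation was described by setting each gene against Slc1a2: the standard deviation (SD) over libraries of its log2 ratio to Slc1a2, with 0.5 CPM added to both, beside the SD of its own log2 level. The ratio can vary less than the level only in a gene whose own SD is over 0.5 times that of Slc1a2 (1.73 over the 9 libraries), so the measure says nothing of genes that vary little. The ratio varied less than the level in 11 of the 21 other tested genes over the 9 libraries, against 92 of 13066 genes (0.704%). Only 12 of the 21 had an SD large enough, and 11 of these 12 met the measure, against 92 of 212 such genes (43.4%). Without saline 1 it held for 14 of 21, against 266 of 13066 genes (2.04%), or for 14 of the 17 with an SD large enough, against 266 of 3386 such genes (7.86%). Slc1a3, Mbp, Mag and Cnp varied too little for the measure with or without saline 1, and so did Glul over the 9 libraries. Without saline 1 Glul, Gjb6 and Mobp varied enough and did not meet it.

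**Figure D3:**
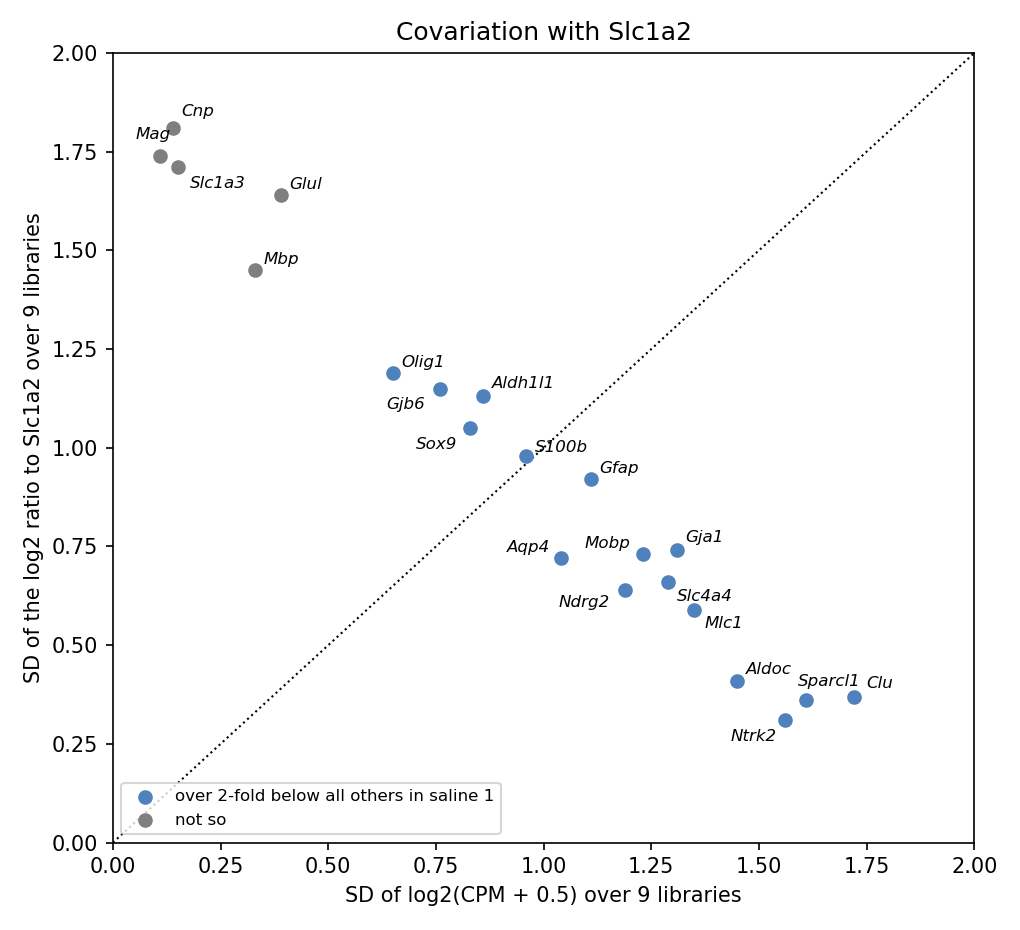
SD of the log2 ratio to Slc1a2 (vertical) against SD of log2(CPM + 0.5) (horizontal) over the 9 libraries for the 21 other tested genes; blue points are the genes more than 2-fold below all other libraries in saline 1, and points under the dotted line vary less relative to Slc1a2 than on their own. Ntrk2, Sparcl1, Clu and Aldoc lie lowest, at SDs of 0.31 to 0.41, and the 5 grey points lie at the upper left, at 1.45 to 1.81, near the SD of 1.73 of Slc1a2 itself, with levels that vary too little for the measure.

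Over the 9 libraries the ratio was steadiest for Ntrk2, with an SD of 0.31 in the log2 ratio against 1.56 in its level. Sparcl1 (0.36 against 1.61), Clu (0.37 against 1.72) and Aldoc (0.41 against 1.45) followed. Ntrk2 had 0 counts in saline 1, so its value there is the 0.5 CPM added. The order changed without saline 1, with Aqp4 at 0.26, Ntrk2 at 0.27, Aldoc at 0.36, Sparcl1 at 0.38 and Clu at 0.40. Aldh1l1, Sox9, Gjb6 and Olig1 had SDs of 0.65 to 0.86 in their level over the 9 libraries, too small for the measure, and S100b was close to meeting it (0.98 in the ratio against 0.96 in the level). Without saline 1 all of these except Gjb6 met it. With 0.1 CPM added in place of 0.5 CPM the measure held for 14 genes over the 9 libraries, and with 2 CPM added it held for 9. Mobp met the measure over the 9 libraries but not without saline 1, where its log2 ratio to Slc1a2 had an SD of 0.62 and its level 0.48, whereas its ratio to Mbp had an SD of 0.33.

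Set against Mbp, 17 of the other 21 genes varied less in their ratio than in their level, against 1313 of 13066 genes (10%), and they were the same 17 genes that were low in saline 1. The same number held without saline 1, against 1960 of 13066 genes (15%). The gain was small, since the SD of Mbp itself was 0.33, and for Slc1a2 the SD was 1.45 in the ratio to Mbp against 1.73 in its level. Mag and Cnp varied too little for this measure with or without saline 1, and Slc1a3 over the 9 libraries. Of the 18 genes that varied enough over the 9 libraries, Glul alone did not meet it, against 1313 of 8878 such genes that did (14.8%).

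Of the genes outside the list with a mean of at least 10 CPM, the 5 nearest to Slc1a2 by this measure over the 9 libraries were Cpe (SD of the log2 ratio 0.27), Gpm6a (0.37), Map2 (0.42), Rapgef4 (0.44) and Zfp365 (0.50). Cpe encodes a peptide-processing enzyme, Gpm6a a membrane glycoprotein and Map2 a microtubule protein of dendrites. Cpe was at 4.26 CPM in saline 1 and 73.1 to 207 CPM in the other 8, and Map2 had 0 counts in saline 1 and 7.01 to 20.6 CPM elsewhere. The 5 nearest to Mbp were Zfp329, Slc20a1, Chd3, Pacsin1 and Zcchc7, at SDs of 0.18 to 0.20 in the ratio and 0.21 to 0.27 in the level, so these are genes that vary little over the libraries.

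Other genes of the same cell types were divided in the same way. These lists were drawn up with earlier results of these data known, so they are no independent support. Of 24 further astrocyte genes, all of which were tested, 21 were more than 2-fold below all other libraries in saline 1, against 3.51% of all genes tested. The 24 genes summed to 43.0 CPM in saline 1 and to 93.9 to 215 CPM in the others. The 3 exceptions were Slc39a12, a zinc transporter, at 24.6 CPM in saline 1 and 21.8 to 25.9 CPM in the others, Ppap2b at 8.47 and 8.02 to 20.2 CPM, and F3, the coagulation initiator tissue factor, at 1.96 and 0.794 to 3.79 CPM. Of 20 further oligodendrocyte genes only 8 were tested, and 3 of them (Car2, Lpar1 and Plekhb1) were low in saline 1. The most abundant of them were not, with Tppp at 163 CPM in saline 1 and 150 to 223 CPM in the others and Trf, which encodes transferrin, at 129 and 112 to 142 CPM. Of 9 further precursor genes Ptprz1 alone was tested, with 0 counts in saline 1 and 2.81 to 14.8 CPM in the others.

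Neuronal transcripts were low in the same library. Of 15 neuronal genes, also listed with earlier results known, 11 were tested. Of these 10 were low in saline 1 in the same sense, against 3.51% of all genes tested. Camk2b was the exception, and Map2 and Stmn2 had 0 counts there. The 15 genes summed to 106 to 382 CPM in ethanol libraries and 20.0 to 320 CPM in saline libraries, with saline 1 the lowest and ethanol 4 the highest. Kif5a, a kinesin motor of axons, was at 1.46 CPM in saline 1 and 60.7 to 255 CPM in the others. For other cells few markers could be tested: 3 of 10 for endothelial cells, 2 of 8 for pericytes and 5 of 8 for border macrophages. For lymphocytes it was 1 of 8, and for monocytes and neutrophils 1 of 8. None of those tested was low in saline 1. Most genes of these lists, border macrophages aside, were too scarce to test, so no contrast with neurons and glia can be drawn from them. Which cells or free RNA the transcripts came from was not tested.

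Ethanol was compared with saline to see whether early exposure left a change in these transcripts in adolescence. No gene was called by edgeR's quasi-likelihood test with Benjamini-Hochberg adjustment at 0.05, 0 of 13067 (0%), so none of the 22 genes was, and their lowest adjusted p was 0.963. At an unadjusted p under 0.05 there were 386 genes, none of them among the 22. DESeq2 also called 0 genes (435 at an unadjusted p under 0.05), as did limma-voom (512).

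Each of the 22 log2 fold changes was above 0, and their median was 0.43, against 49.8% above 0 and a median of -0.001 over all genes tested. Many of the 22 vary together, and 17 were low in saline 1, a saline library. They are not separate observations, so the 22 cannot be set against that share as a test of direction. The count and the median moved with single libraries. Without saline 1 it was 19 of 22 with a median of 0.17, and without ethanol 4 it was 16 of 22 with a median of 0.18. Without saline 5 the median was 0.92, with all 22 above 0. The ethanol and saline groups overlapped in all 22 genes, whereas they did not in 168 of all genes tested (1.29%).

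**Figure D4:**
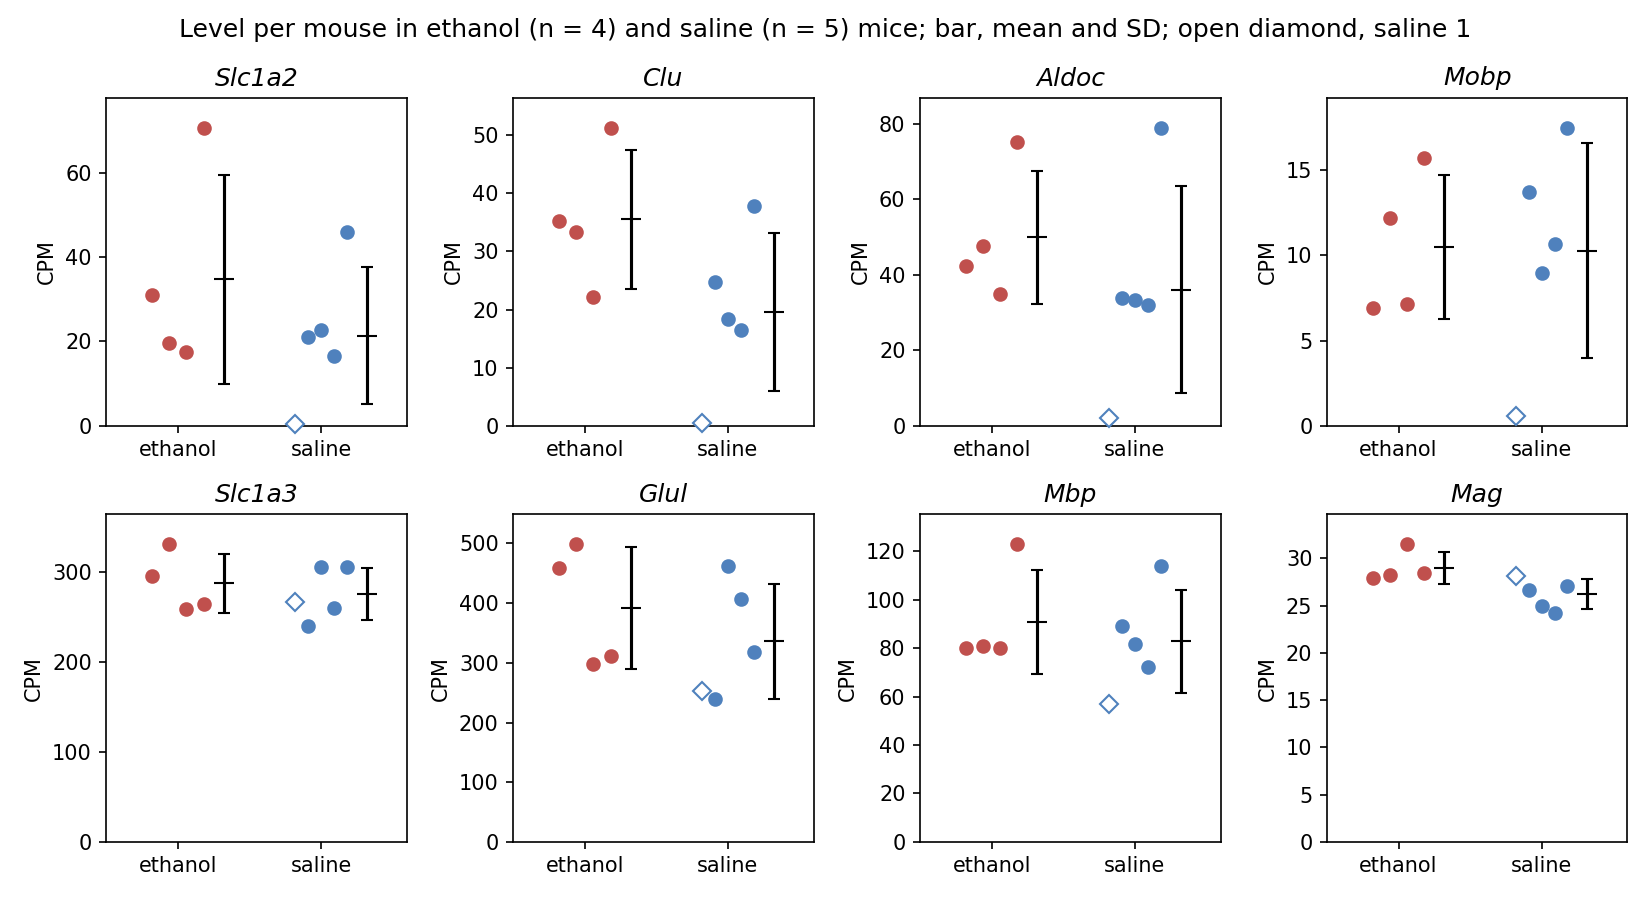
Level in CPM (vertical, from 0) of 8 genes in each ethanol mouse (red, 4 mice) and saline mouse (blue, 5 mice), with mean and SD as black bars and saline 1 as an open diamond. The groups overlap in all 8 panels, and saline 1 lies at the bottom for Slc1a2, Clu, Aldoc and Mobp but within or near the others for Slc1a3, Glul, Mbp and Mag.

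For the genes low in saline 1 the error was wide, with standard errors (SE) of 0.50 to 0.79 and log2 fold changes of 0.03 to 0.85. Slc1a2 averaged 34.7 ± 24.7 CPM in ethanol mice (SD, n = 4) and 21.4 ± 16.3 CPM in saline mice (n = 5), a log2 fold change of 0.69 ± 0.74 (SE; 95% interval -0.95 to 2.34), and without saline 1 it was 0.38 ± 0.48. Clu had the largest, 0.85 ± 0.66, at 35.5 ± 12 CPM in ethanol mice and 19.6 ± 13.6 CPM in saline mice, with 0.54 ± 0.31 without saline 1. Mobp had the smallest, 0.03 ± 0.61, at 10.5 ± 4.23 CPM in ethanol mice and 10.3 ± 6.34 CPM in saline mice. It was below 0 without saline 1, at -0.27.

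The 5 genes not more than 2-fold below the other libraries in saline 1 were measured more tightly. Saline 1, by which the genes were split, is itself in these fits, so this contrast is not independent of the split. Slc1a3 averaged 287 ± 33.1 CPM in ethanol mice and 276 ± 28.9 CPM in saline mice, a log2 fold change of 0.06 ± 0.10 (95% interval -0.16 to 0.28). Mag, at 29 ± 1.70 CPM in ethanol mice and 26.2 ± 1.59 CPM in saline mice, had 0.15 ± 0.09 (interval -0.05 to 0.34) and the lowest unadjusted p of the 22 genes, 0.124 by edgeR's quasi-likelihood test fitted over all genes. Cnp had 0.08 ± 0.10, Mbp 0.13 ± 0.20 and Glul 0.22 ± 0.23. The interval spanned 0 in all 5 genes and was narrower than in any of the 17.

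Of the 24 further astrocyte genes 23 lay above 0 for ethanol (median log2 fold change 0.53), against 49.8% of all genes tested, and none was called. Their sum was 109 to 215 CPM in ethanol libraries and 43.0 to 193 CPM in saline libraries. Of the 8 further oligodendrocyte genes tested 6 were above 0, with a median of 0.07, and of the 11 neuronal genes 9 were, with a median of 0.28. In saline 1, a saline library, 21 of the 24, 3 of the 8 and 10 of the 11 were more than 2-fold below all others. The genes therefore share the effect of that library and are not separate observations of ethanol. Values without saline 1 are not given for these lists.

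**Figure D5:**
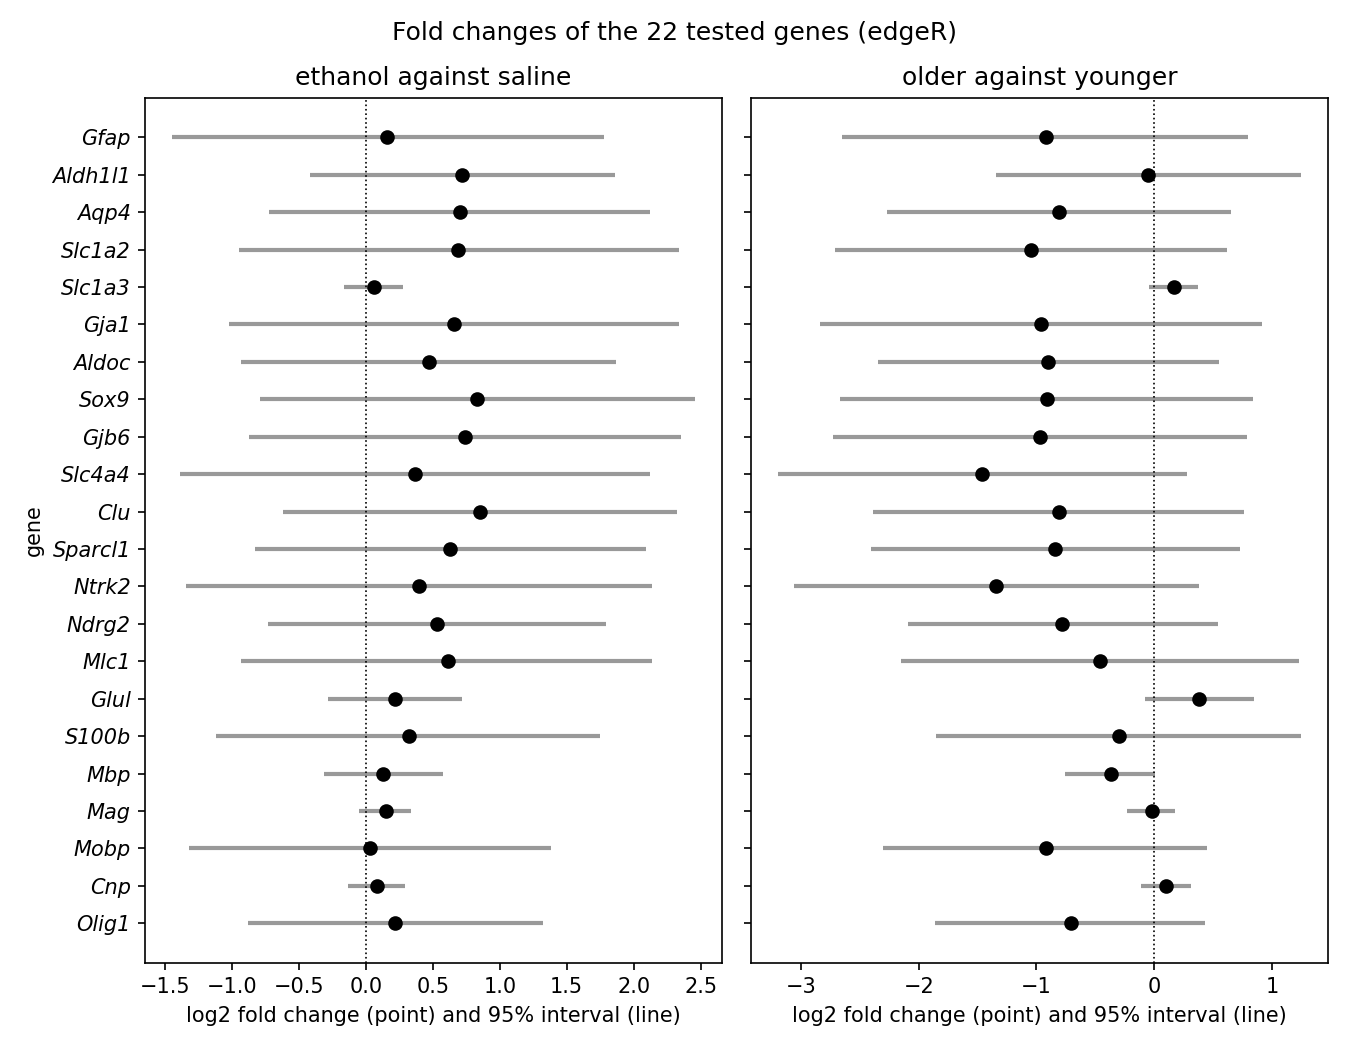
Log2 fold change (points) with 95% interval (lines) of the 22 tested genes for ethanol against saline (left) and older against younger mice (right), from edgeR's quasi-likelihood fit over all 9 libraries. All 22 points lie above 0 on the left, 19 of 22 lie below 0 on the right, and the lines of Slc1a3, Glul, Mbp, Mag and Cnp are the shortest.

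Age at collection was another difference between mice that the labels give, beside body weight, tissue weight, sorted cells and the library-name suffix. Older mice were compared with younger mice with ethanol as a covariate, and again 0 of 13067 genes (0%) were called by edgeR's quasi-likelihood test with Benjamini-Hochberg adjustment, the lowest adjusted p of the 22 genes being 0.973. At an unadjusted p under 0.05 there were 372 genes, none among the 22. DESeq2 called 0 (451 unadjusted), and limma-voom 0 (439). The log2 fold change was below 0 for 19 of the 22, with a median of -0.81, against a median of -0.02 and 45.2% above 0 over all genes. Saline 1 is an older mouse, and without it 6 of the 22 were above 0 and the median was -0.30. Here too the genes are not separate observations.

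Slc1a2 averaged 18.5 ± 12.9 CPM in older mice (SD, n = 4) and 34.4 ± 23.6 CPM in younger mice (n = 5), a log2 fold change of -1.05 ± 0.74, and -0.59 ± 0.50 without saline 1. Mobp averaged 7.17 ± 4.92 CPM in older mice and 13 ± 4.11 CPM in younger mice (-0.92 ± 0.61). Mbp averaged 74.9 ± 12 CPM in older mice and 95.8 ± 22.1 CPM in younger mice, -0.37 ± 0.17 (95% interval -0.76 to 0.01), and had the lowest unadjusted p of the 22, 0.0563 in the edgeR fit over all genes. No gene of the 22 had levels that did not overlap between the ages, against 162 of all genes tested (1.24%).

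Slc1a3, Glul and Cnp were above 0. Glul averaged 418 ± 112 CPM in older mice and 315 ± 60.1 CPM in younger mice (0.38 ± 0.21). Without saline 1 its log2 fold change was 0.60 ± 0.15, still with an adjusted p of 0.949 by edgeR's quasi-likelihood test. Over all 9 libraries the ages overlapped, with saline 1, an older mouse, at 253 CPM and the younger mice at 240 to 407 CPM. The older mice other than saline 1 all carry the library-name suffix with the high Glul levels, as does saline 4, the younger mouse at 407 CPM. Saline 4 is the only library apart from saline 1 in which age and suffix part, so the 2 cannot be told apart here. Slc1a3 averaged 300 ± 26.2 CPM in older mice and 266 ± 23.9 CPM in younger mice (0.17 ± 0.09).

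The lean of the 22 genes for ethanol was also not alike at both ages. In the younger mice alone (2 ethanol, 3 saline) 16 of 22 were above 0 (median log2 fold change 0.18). In the older mice alone (2 ethanol, 2 saline, saline 1 among them) all 22 were, with a median of 1.30. The difference between the ages was not tested, and no gene was called at either.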

How the data were processed

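The authors deposited 1 table of raw counts per gene symbol for the 9 libraries, not normalized. Build GRCm38.p4, STAR 2.4.2a, HTSeq 0.6.1 and Trimmomatic 0.32 are listed, with no role, per the submitters' processing notes. The sources used here do not state the annotation release, the counting settings or whether strand was used, so overlapping genes are uncertain. The filter was filterByExpr of edgeR with a minimum count of 10 and a minimum total of 15, which left 13067 genes, and libraries were scaled by TMM. The main test was the quasi-likelihood F test of edgeR with robust dispersions (edgeR 4.0.16, R 4.3.3), fitted over all genes adjusted by Benjamini-Hochberg at a threshold of 0.05, for ethanol against saline with no covariate and for older against younger mice with ethanol as a covariate. The square root of the common dispersion was 0.208, the variation between libraries beyond counting error. The p-values measure the spread between mice together with that of sorting and library preparation. Poisson intervals and the floor of 3 counts cover counting error only. No 2 libraries of a group were alike within sampling noise, with a chi-square per gene between 8.30 and 84.1.

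Coordinates, lengths and overlaps came by symbol from GENCODE release M21 on GRCm38, which matched all 31 members and 12382 of the 13067 genes tested. The 31 members, the further gene lists and the choice of saline 1 were made with earlier results of these data known. Genes outside the 31 were named by rule: the 5 nearest to Slc1a2 and to Mbp with a mean of at least 10 CPM, and the 2 most abundant of each list, with predicted genes, Rik genes and pseudogenes passed over. Some genes that this rule names are not reported here. The exceptions named among the other lists, Camk2b, Stmn2, Ppap2b, F3, Car2, Lpar1 and Plekhb1, were chosen after their values were seen. Alternatives were limma-voom with sample weights (limma 3.58.1), DESeq2 1.42.0, other size factors, no count filter or a stricter one (4 or more libraries at 5 CPM or more), each library left out, saline 1 and ethanol 2 left out, covariates, and other pseudocounts and anchor genes. Each age alone was added after the data were seen. The fits were tested on simulated data with known changes in 50 genes at each fold, drawn at random from all genes tested. For ethanol 15 of 50 genes were recovered at 1.5-fold, 38 at 2-fold, 44 at 4-fold and 45 at 8-fold, with 9 false calls. For age the numbers recovered were 17, 28, 44 and 43, with 7 false calls. These numbers do not measure recovery in the 17 genes low in saline 1, whose SEs for ethanol were 0.50 to 0.79. Figures and other values were made with Python 3.11.15.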

Additional observations from a re-analysis of the deposited data

Results flagged for a closer look

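Within each treatment the highest and lowest library of each of the 22 tested genes was compared with the others by Dixon's ratio on log2(CPM + 0.5), which chance passes in about 1 of 20 groups. Of 44 such groups 8 passed. The genes were chosen with saline 1 in view and many of them vary together, so this number cannot be set against chance.

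In 6 of them saline 1 was far below the other 4 saline libraries: Slc1a2 at 0.505 CPM, Aldoc at 2.13 CPM, Clu at 0.448 CPM, Sparcl1 at 1.35 CPM, Ntrk2 at 0 CPM and Mobp at 0.561 CPM. The 6 are among the 17 genes already described as low in that library, so they are not separate observations. The neuronal list was lowest in the same library, at 20.0 CPM against 106 to 382 CPM in the other 8, while the microglial list was at 72525 CPM there, within 62334 to 74981 CPM in the others. The part of sorting in these levels was not tested.

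Mbp stood out in ethanol 4, at 123 CPM, against 79.9 to 80.8 CPM in the other 3 ethanol libraries. Saline 5 had a similar level of 114 CPM. Mag stood out in ethanol 3, at 31.5 CPM, against 27.9 to 28.4 CPM in the other 3 ethanol libraries, which is a small difference in size.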

How the results depend on the processing

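For ethanol no setting called a gene, and for age none of the 22 genes was called except without a count filter. That setting called 97 genes for age, 8 of them members (Slc1a2, Aldoc, Slc4a4, Clu, Sparcl1, Ntrk2, Ndrg2 and Mobp). There the median prior degrees of freedom of the fit was infinite, against 4.44 with the filter, and the SE of Slc1a2 was 0.149, against 0.742. Leaving out saline 1 and ethanol 2 together called 3 genes for age, none of them members. The median log2 fold change of the 22 genes for ethanol, 0.43, was 0.17 to 0.92 with each library left out, 0.19 without saline 1 and ethanol 2, 0.72 with age as a covariate, 0.19 with the library-name suffix as a covariate, 0.18 in younger mice alone and 1.30 in older mice alone. That for age, -0.81, was -1.13 to -0.30 with each library left out and -0.29 without saline 1 and ethanol 2. Depth limits what can be said of the 9 genes not tested and of the 5 genes at 0 counts in saline 1.

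The replicate numbers did not pair the samples, with correlations of -0.0158, -0.0101, -0.0542 and -0.0141 between same-numbered libraries. With this replicate block in the fit the median was 1.12 for ethanol and 0.13 for age, a change of sign, and no gene was called. Under the block 14 of the 22 genes were above 0 for age. The genes that changed sign there were Aldh1l1 (0.87), Slc1a2 (0.12), Gja1 (0.20), Aldoc (0.20), Gjb6 (0.51), Clu (0.06), Sparcl1 (0.13), Ndrg2 (0.45), Mlc1 (0.52), S100b (1.20), Mobp (0.05) and Olig1 (0.21), all above 0, and Cnp (-0.08), below 0. The cause was not tested.

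Single genes changed sign for ethanol in younger mice alone: Gfap (-0.20), Aldh1l1 (-0.04), Slc1a3 (-0.04), Glul (-0.08), Mobp (-0.29) and Olig1 (-0.26). Without saline 1 and ethanol 2, Slc1a3 was at -0.03 and Mobp at -0.35. Slc1a3 was at -0.01 with limma-voom, and Mobp at -0.24 with the suffix as a covariate. With each library left out, the range for ethanol was -0.25 to 0.86 for Gfap, -0.02 to 0.10 for Slc1a3, -0.1 to 0.75 for Slc4a4, -0.15 to 0.90 for Ntrk2, -0.1 to 0.67 for S100b, -0.05 to 0.28 for Mbp, -0.27 to 0.30 for Mobp and -0.02 to 0.66 for Olig1. For age it was -0.45 to 0.43 for Aldh1l1, -1.05 to 0.07 for Mlc1, -1.02 to 0.19 for S100b and -0.08 to 0.02 for Mag. Aldh1l1 for age was at 0.17 with limma-voom, 0.42 without saline 1 and ethanol 2 and 0.20 with no ethanol term, and S100b at 0.14 without saline 1 and ethanol 2. The cause was not tested, and none of these values passed the threshold.

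The 17 genes low in saline 1 were 17 with other size factors. They were also 17 with each other library left out, but leaving 1 out could only raise this count and not lower it. Under the stricter filter, which kept 16 of the 22 genes, 11 were low in saline 1. With Mog in place of Mbp 0 genes varied less in their ratio than in their level, Mog having 50 counts in all.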
